A study of Homo sapiens with 2 samples.

Results

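The genes of the potassium channels were examined on a pair of single-colour Agilent expression arrays of H9 cells, an established line of human embryonic stem cells. A probe was taken as a member if the RefSeq accession of its array annotation belongs to a protein-coding gene whose symbol starts with KCN, the prefix reserved for potassium channel subunits and the auxiliary proteins that bind them. Antisense and other noncoding genes with that prefix were left out. The members were 120 of the 58201 probes on the array, and they named 95 of the 96 such genes in the name table. KCNK4, which codes for the mechanosensitive channel TRAAK, had no named probe.

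The study moved H9 cells from vitronectin to Matrigel, an extracellular matrix preparation, and compared the substates of the cells in the new culture. Both arrays held total RNA of H9 cells grown on Matrigel in the serum-free medium TeSR-E8, and 1 array was made per substate. Substate 1 was passage 35 and is described by strong R-10G staining, which marks a keratan sulphate of pluripotent cells, without the mesenchymal protein vimentin. Substate 2 was passage 50 and is described by weaker R-10G staining together with vimentin. Passage and substate cannot be told apart. The study began culture on Matrigel at passage 35, so time on Matrigel cannot be told apart from substate either. How the cells of each substate were isolated for these arrays is not given in the sources used here. With 1 array per group there was no test between the substates, so each difference compares these 2 arrays.

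Potassium channels are membrane pores that let potassium ions pass down their gradient, which in most cells means outwards, and so hold the membrane potential negative. Voltage-gated members open on depolarisation and end the action potential of nerve and muscle, calcium-activated members open when calcium rises, and inward rectifiers and tandem-pore-domain members carry current at rest. Auxiliary subunits form no pore but set where a channel sits and how it gates. In stem cells, potassium channels have been linked to cell volume and to passage through the cell cycle.

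Signals are given as normalised log2 signals, where 0 is the 75th percentile of the probes of the same array, and differences are those of substate 2 minus substate 1 on this log2 scale. A probe is called detected on an array where its spots lay well above the local background, and measured where it was detected on both. The share of spots so detected was 57.4% for substate 1 and 54.7% for substate 2, and no spot was saturated. The 8 pluripotency markers with a named probe, among them POU5F1, NANOG and SOX2, were measured on both arrays, with a median difference of 0.19. VIM, which codes for vimentin, had a signal of 3.16 in substate 1 and 5.68 in substate 2. CDH1, which codes for E-cadherin, had 4.91 and 3.44. Both went the way of the substate labels.

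Fewer potassium channel probes were measured than probes of protein-coding genes in general. Of the 120 probes 61 were measured on both arrays (50.8%), whereas 75.6% of the 24866 probes of protein-coding genes and 51.3% of all probes were. A further 45 potassium channel probes were detected on neither array (37.5%, against 20.5% of protein-coding probes). The substate 1 array alone detected 7 probes (5.83%, against 2.82%), and the substate 2 array alone detected another 7 (5.83%, against 1.17%). At the level of genes, 53 had a probe measured on both arrays, 62 had one detected on at least 1 array, and 33 had none detected on either. The measured potassium channel probes were dim, with a median over probes of the mean signal of -1.42, whereas that of the measured protein-coding probes was 0.83.

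**Figure D1:**
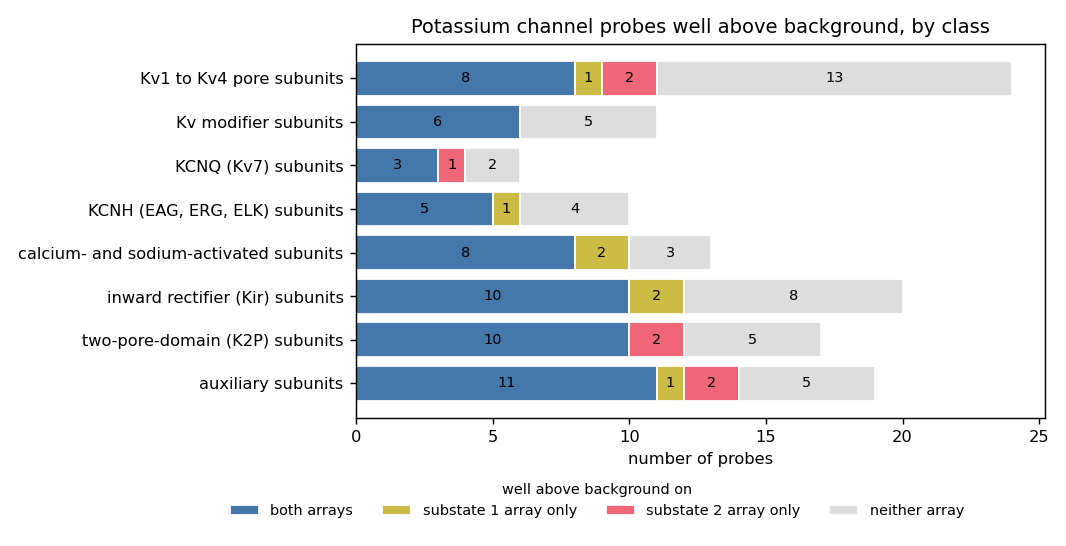
Number of potassium channel probes (horizontal axis) in each of 8 channel classes, divided by the array on which they were detected. The Kv1 to Kv4 pore subunits had the largest number of probes on neither array (13 of 24), and every class had probes measured on both arrays.

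Detection differed in number between the channel classes. Of the 24 probes of Kv1 to Kv4 pore subunits, the voltage-gated channels of nerve and muscle, 8 were measured on both arrays (33.3%) and 13 on neither. The 9 genes of that class without a detected probe were KCNA1, KCNA2, KCNA4, KCNA6, KCNA7, KCNA10, KCNC2, KCND1 and KCND3. Of the inward rectifiers, 5 of 16 genes were not detected, and these were KCNJ1, the renal channel ROMK, KCNJ16, and KCNJ3, KCNJ5 and KCNJ9, which are subunits of channels opened by G proteins. KCNJ6, a further subunit of that kind, was measured on both arrays. The 4 undetected tandem-pore-domain genes were KCNK9, KCNK13, KCNK16 and KCNK18. The modifier genes KCNG2, KCNG4, KCNS2, KCNV1 and KCNV2 were not detected, nor were KCNH1, KCNH5, KCNH7, KCNT1 and KCNU1. Among auxiliary genes KCNE1, the partner of KCNQ1 in the heart, KCNAB2, KCNIP2 and KCNMB2 were not detected. At this signal a low level of such a transcript was not detectable, and absence cannot be read from it.

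Over the measured probes the differences were small and lay on both sides of 0. Of the 61 probes 27 were higher and 34 lower in substate 2 (55.7% below 0, where 39.1% of the 18790 measured protein-coding probes were below 0). Their median difference was -0.09 with an SD between probes of 0.46, and for protein-coding probes the median was 0.09 and the SD 0.37. Between the quartiles of the mean signal of the potassium channel probes the contrast was smaller, with 16 of 31 below 0 (51.6%), beside 47.4% of protein-coding probes of that signal, whose median was 0.02. At the level of genes, 25 of 53 were higher and 28 lower (52.8%, against 38.2% of 14108 protein-coding genes). The median over genes was -0.04, against 0.10 for protein-coding genes, and 39 genes lay within 0.5 of 0 (73.6%, against 86.8%). Spot noise, taken as the median over 291 probes printed several times, accounted for an SD of 0.07 of a difference between single spots. The only potassium channel probe among them, of KCNK15, had larger SDs between spots, 0.08 and 0.10. The spot noise of the other, mostly dimmer members was not measured. None of this says anything of the spread between cultures. In bulk RNA, fewer cells of a type and less RNA per cell cannot be told apart. Different probes of the same gene lay a median of 0.15 apart over all genes (5769 pairs) and 0.35 apart over the 8 potassium channel genes with more than 1 measured probe.

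**Figure D2:**
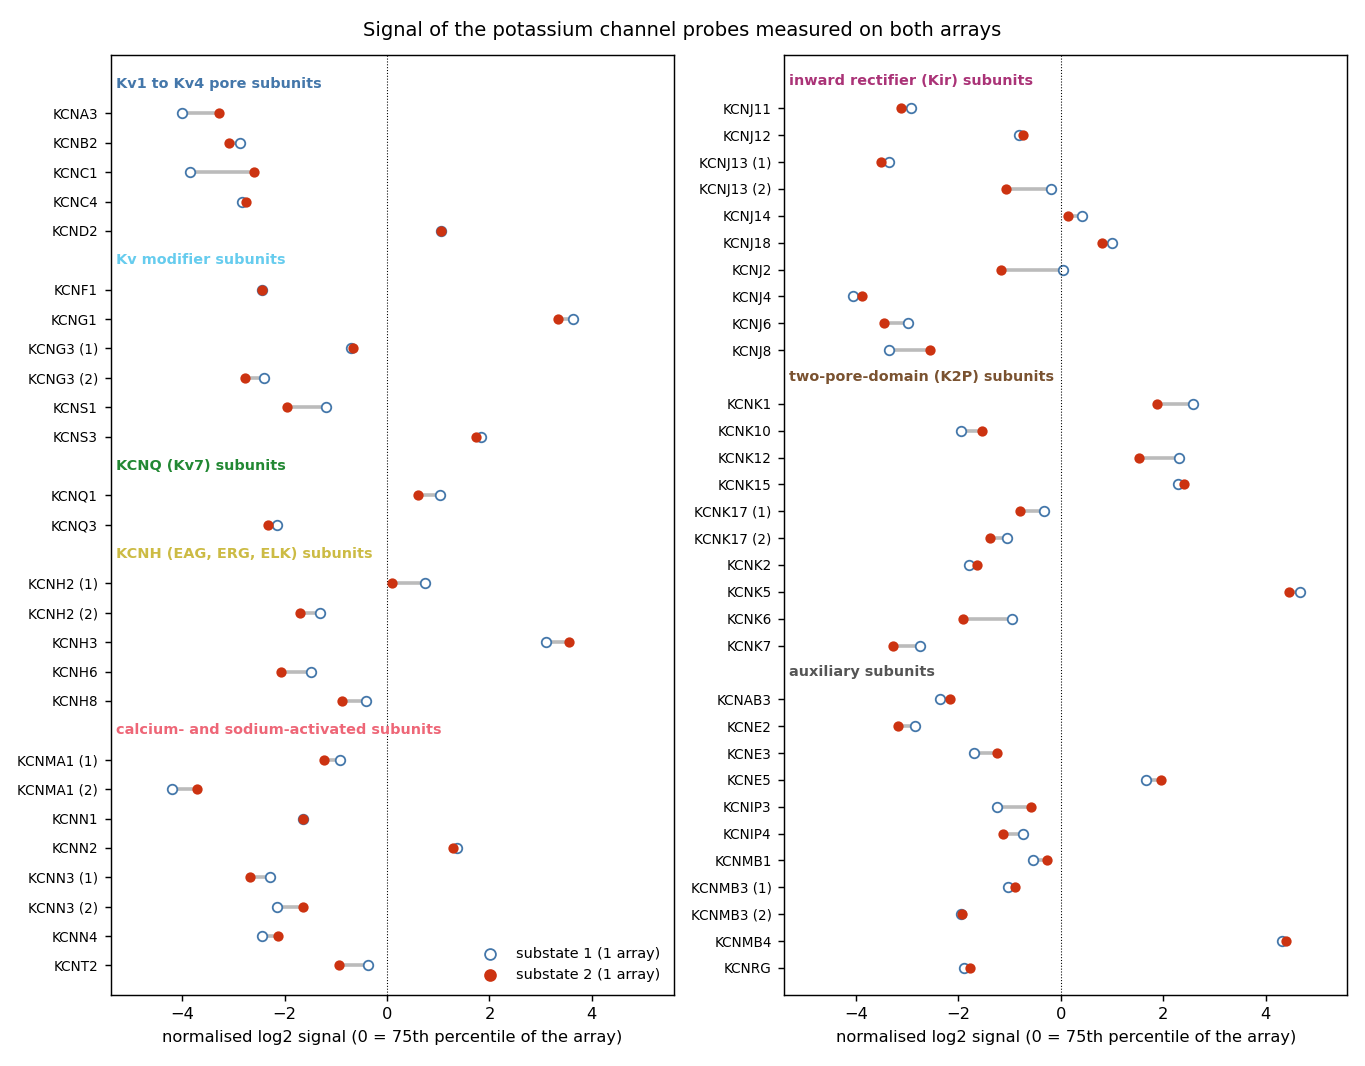
Normalised log2 signal (horizontal axis, 0 at the 75th percentile of the array) of potassium channel probes measured on both arrays, with an open circle for substate 1 and a filled circle for substate 2, 1 array each. Numbers in brackets tell probes of the same gene apart. Most pairs lie close together, and the widest gaps are those of KCNC1, higher in substate 2, and KCNJ2, higher in substate 1.

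A difference of 2-fold or more was seen for few members. Among the 75 probes detected on 1 array or both, 3 were 2-fold or more higher in substate 2 (4%, where 1.55% of all probes and 1.37% of protein-coding probes were) and 2 were 2-fold or more lower (2.67%, against 1.67% and 1.12%). Measured on both arrays, 1 probe was that much higher and 1 that much lower (1.64% each, against 0.905% and 0.926% of protein-coding probes and 0.85% and 1.26% of all probes). Between the quartiles of the mean signal of the potassium channel probes, 0 of 31 were that much higher (against 1.31% of protein-coding probes). There 1 was that much lower (3.23%, against 1.49%). The 5 probes belonged to KCNC1 (2 probes), KCNA5, KCNJ2 and KCNMA1. None of them kept a 2-fold difference after normexp background correction, which adds a constant to every signal and draws dim signals together.

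KCNC1 and KCNJ2 were the genes with a measured difference of 2-fold or more, and the 250 bases before their start sites are shown to place these 2 genes in the genome. KCNC1 lies on chromosome 11, and of its annotated starts the upstream one is shown, chr11:17734531-17734780. KCNJ2 lies on chromosome 17, with chr17:70169282-70169531 before its start. Both are the plus strand of GRCh38.p14 from RefSeq, and CG dinucleotides are in capitals.
KCNC1: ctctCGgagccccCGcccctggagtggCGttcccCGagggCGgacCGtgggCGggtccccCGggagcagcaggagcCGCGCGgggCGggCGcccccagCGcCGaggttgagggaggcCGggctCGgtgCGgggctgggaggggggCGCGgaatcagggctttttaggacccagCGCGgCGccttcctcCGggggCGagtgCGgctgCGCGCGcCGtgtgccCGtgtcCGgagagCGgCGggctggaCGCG
KCNJ2: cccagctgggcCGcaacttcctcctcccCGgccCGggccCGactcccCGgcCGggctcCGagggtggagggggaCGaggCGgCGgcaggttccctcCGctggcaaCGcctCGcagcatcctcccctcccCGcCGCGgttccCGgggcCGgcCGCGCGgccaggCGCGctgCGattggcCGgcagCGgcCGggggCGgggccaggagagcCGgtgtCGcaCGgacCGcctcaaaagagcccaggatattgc
The KCNC1 stretch held 36 CG dinucleotides and the KCNJ2 stretch 32. The stretch before the other annotated start of KCNC1 held 18. Over the 250 bases before 22199 RefSeq starts of protein-coding genes, 96.8% held at least 1 CG and the median number was 16. Before the 110 starts of 72 potassium channel genes the median was 13.5. The arrays measured transcripts only and bear on no promoter.

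Among the Kv1 to Kv4 pore subunits, KCNC1 was the gene with the widest measured difference. It codes for Kv3.1, a channel that lets neurons fire at high rates. The study had taken it as a candidate gene in part from these arrays, so its difference here is no independent evidence. After RT-PCR of the candidates, the study did not list this gene among those significantly upregulated. One probe had a signal of -3.84 in substate 1 and -2.60 in substate 2, 2.37-fold higher in substate 2. Another, detected in substate 2 alone, had -4.59 and -3.25, which gives a bound of at least 2.28-fold higher. The third probe, designed on another transcript of the gene, was detected on neither array. Normexp correction reduced the difference of the first probe from 1.25 to 0.55.

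KCNA5 was the other gene of this class past 2-fold. It codes for Kv1.5, which carries a fast repolarising current in the atria of the heart. Its probe was detected in substate 2 alone, with signals of -4.69 and -2.94, and was at least 2.83-fold higher there. For this probe the difference after normexp correction was 0.66.

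The probes of KCNA3 went in opposite directions. KCNA3 codes for Kv1.3, the main voltage-gated potassium channel of T cells. Its messenger RNA probe was 1.65-fold higher, with -4.00 in substate 1 and -3.28 in substate 2. The other probe, annotated with a noncoding accession of the gene, was detected in substate 1 alone, at -3.62 and -5.41, and was at least 1.49-fold lower in substate 2. The remaining measured probes of the class differed little. KCNB2 (Kv2.2) had -2.86 and -3.09, KCNC4 differed by 0.07 and KCND2 by 0.01. KCND2 codes for Kv4.2, the channel behind a transient current in dendrites, and its signals were 1.05 and 1.06.

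The modifier subunits, which form no working channel alone and change the gating of Kv2 partners, had a median difference of -0.20 over 6 measured probes, 5 of them below 0. KCNS1 was 1.69-fold lower in substate 2, its signal being -1.20 in substate 1 and -1.96 in substate 2. KCNG1 had 3.63 and 3.35, and KCNS3 had 1.84 and 1.74. The pair of KCNG3 probes differed by 0.04 and -0.38. KCNF1 had -2.44 on both arrays. Within this class KCNS1 alone lay more than 0.5 from 0.

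For the KCNQ family the 3 measured probes gave a median of -0.17. KCNQ1, the channel of the slow repolarising current of the heart and of many epithelia, had 1.03 in substate 1 and 0.60 in substate 2. KCNQ3, a subunit of the channels behind the neuronal M current, which restrains repeated firing, had -2.15 and -2.33. The probe of KCNQ5, a relative of both, was detected in substate 2 alone, with -4.51 and -3.62, and was at least 1.77-fold higher.

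In the KCNH family 4 of 5 measured probes were lower in substate 2, with a median of -0.46. KCNH2 codes for hERG, the channel of the rapid repolarising current of the heart and a known target of drugs that prolong it. One KCNH2 probe was 1.57-fold lower, with 0.74 in substate 1 and 0.09 in substate 2, and the other was 1.31-fold lower, with -1.31 and -1.70. Both probes thus went the same way. KCNH6, a relative of KCNH2, had -1.49 and -2.08. KCNH8 had -0.42 and -0.88. KCNH3, of the ELK group like KCNH8, went the other way, with 3.11 in substate 1 and 3.55 in substate 2. KCNH4 was detected in substate 1 alone and was at least 1.25-fold lower.

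The calcium- and sodium-activated subunits were split, with 4 measured probes higher and 4 lower and a median of -0.04 that turned to 0.002 on median centring and to 0.01 after normexp correction. KCNMA1 codes for the large-conductance BK channel, which opens to both calcium and voltage, and it had 5 probes that did not go together. One measured probe had -0.91 in substate 1 and -1.23 in substate 2, and the other had -4.21 and -3.72. A pair of probes was detected in substate 1 alone. Of these, one had -3.07 and -4.14 and was at least 2.10-fold lower, and the other had -2.81 and -3.64 and was at least 1.79-fold lower. The fifth was detected on neither array. Thus 3 KCNMA1 probes were lower and 1 was higher in substate 2.

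KCNN3, a small-conductance channel that opens to calcium alone, had probes of opposite direction, with differences of -0.39 and 0.51. KCNN1 differed by 0.01, KCNN2 had 1.37 and 1.28, and KCNN4, the intermediate-conductance channel of blood cells and epithelia, had -2.44 and -2.13. KCNT2, a channel opened by sodium, had -0.37 in substate 1 and -0.95 in substate 2, a difference of -0.58.

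KCNJ2 was the measured gene furthest below 0. It codes for Kir2.1, the inward rectifier that sets the resting potential of heart and skeletal muscle. Its single probe was 2.31-fold lower in substate 2, with a signal of 0.04 in substate 1 and -1.17 in substate 2. It was also the 1 measured member past the Z-score limit of the study, and its difference of -1.21 became -0.80 after normexp correction.

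The inward rectifiers lay on both sides of 0, with 3 of the 10 measured probes higher, 7 lower, KCNJ2 among them, and a median of -0.19. KCNJ8, the Kir6.1 pore of channels that close when ATP is plentiful, was 1.73-fold higher, with -3.35 in substate 1 and -2.56 in substate 2. KCNJ11, the Kir6.2 pore of the same kind of channel, had -2.93 and -3.13. KCNJ13 codes for Kir7.1, a channel of transporting epithelia such as the retinal pigment epithelium, and its probes disagreed in size. One had -0.19 and -1.07, 1.84-fold lower, and the other had -3.36 and -3.50. KCNJ6 had -2.98 and -3.45, KCNJ14 had 0.41 and 0.14, and KCNJ4 had -4.06 and -3.88. KCNJ12 and KCNJ18 are near-identical genes whose probes may share transcripts, and they differed by 0.09 and -0.19. A KCNJ10 probe, for the glial channel Kir4.1, was at least 1.16-fold lower, and a KCNJ15 probe was detected in substate 1 alone, at -4.31, too dim for a fold.

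**Figure D3:**
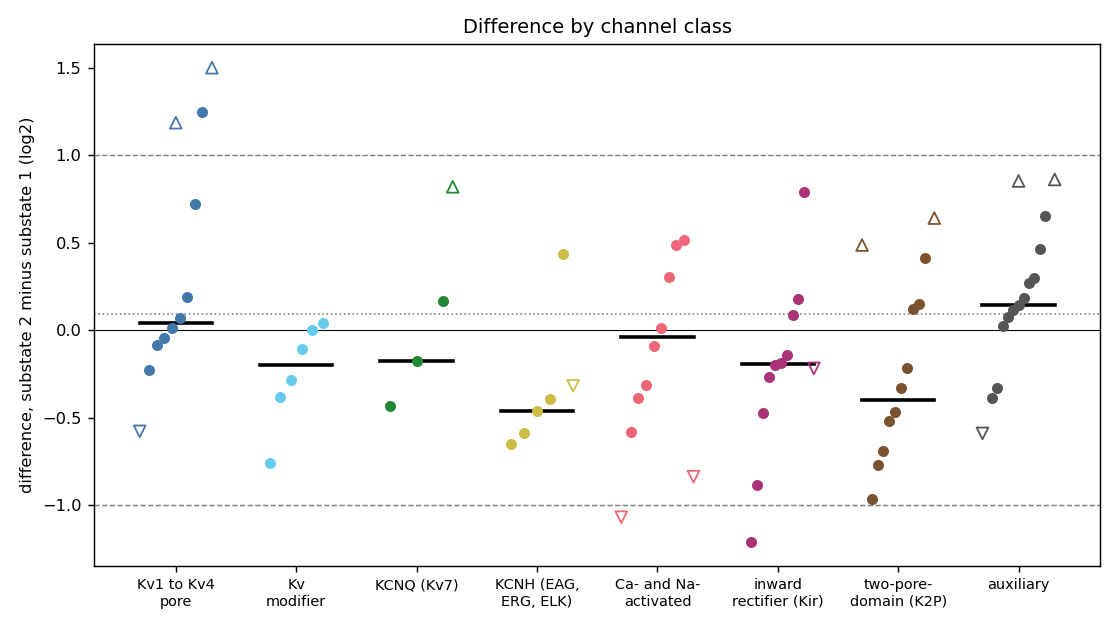
Difference, substate 2 minus substate 1 on the log2 scale (vertical axis), by channel class. Filled points are probes measured on both arrays. Open triangles are bounds for probes detected on 1 array only and point in the direction of the bound. Thick bars are class medians over the filled points, the dotted line is the median of protein-coding probes (0.09), and the dashed lines mark 2-fold. The KCNH and tandem-pore-domain medians (-0.46 and -0.40) lie lowest and the auxiliary median (0.14) highest. The KCNJ15 probe without a bound is not drawn.

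Of the tandem-pore-domain subunits, the background or leak channels, 7 of 10 measured probes were lower in substate 2, with a median of -0.40. KCNK6 (TWIK-2) was 1.95-fold lower, with -0.94 in substate 1 and -1.91 in substate 2. KCNK1 (TWIK-1), its close relative, had 2.57 and 1.89, 1.61-fold lower. KCNK12 (THIK-2) had 2.30 and 1.53, 1.71-fold lower. The signals of KCNK1 and KCNK12 lay above the 75th percentile on both arrays. Both probes of KCNK17 were lower, by differences of -0.47 and -0.33. KCNK7 had -2.76 and -3.28. KCNK5 (TASK-2), a channel that responds to alkaline pH, had 4.68 and 4.47.

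The mechanosensitive relatives KCNK2 (TREK-1) and KCNK10 (TREK-2) were not lower. KCNK2 had -1.79 in substate 1 and -1.64 in substate 2, and KCNK10 had -1.96 and -1.55. For KCNK15 (TASK-5), which is not known to carry current alone, the answer depended on the probe. The probe printed in 10 spots had 2.28 and 2.40, with SDs between spots of 0.08 and 0.10, and differed by 0.12. The other KCNK15 probe had -6.31 in substate 1, below background, and -3.80 in substate 2, at least 1.56-fold higher. KCNK3 (TASK-1), an acid-sensitive leak channel, was also detected in substate 2 alone, with -4.75 and -3.95, a bound of 0.49 on the log2 scale.

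The auxiliary subunits were the class with most probes on the higher side, 9 of 11 (81.8%, against 60.9% of measured protein-coding probes). Their median was 0.14, beside 0.09 for protein-coding probes. KCNIP3, a calcium-binding partner of Kv4 channels also known as a transcriptional repressor, was 1.57-fold higher, with -1.24 in substate 1 and -0.59 in substate 2. KCNE3, a partner that holds KCNQ1 open in epithelia, had -1.70 and -1.24, and KCNE5 had 1.66 and 1.96. KCNMB4, the neuronal subunit of BK channels, had 4.32 and 4.40. The other higher probes, of KCNMB1, KCNMB3, KCNAB3 and KCNRG, differed by 0.02 to 0.27. The 2 lower ones were KCNIP4, another Kv4 partner, with -0.74 and -1.13, and KCNE2, a partner of KCNH2 and KCNQ1, with -2.86 and -3.19. KCNE4, which dampens several Kv channels, and KCNIP1 were detected in substate 2 alone, at least 1.81-fold and 1.82-fold higher. KCNAB1, a cytoplasmic beta subunit of Kv1 channels, was detected in substate 1 alone, with -3.61 and -4.25.

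Set side by side, 32 of the 50 measured probes of pore-forming and modifier subunits (64%) were lower in substate 2, and 2 of the 11 auxiliary probes (18.2%) were. The medians were -0.18 and 0.14, and 39.1% of protein-coding probes were lower. Since potassium channel probes were dim, the same counts were taken between the quartiles of their own mean signal, from -2.44 to 0.28. There 15 of 23 pore-forming and modifier probes and 1 of 8 auxiliary probes were lower, beside 47.4% of 5823 protein-coding probes. Under centring on the median, quantile normalisation and loess centring, 31 to 32 pore-forming and modifier probes were lower and 8 to 9 auxiliary probes higher. After normexp correction these counts were 28 and 7. All of these settings kept the same 61 probes, so the counts had little room to move. Detection by spots positive and significant against background adds probes. It put the tandem-pore-domain median at -0.046, the modifier median at -0.06 and the KCNQ median at 0.17. The KCNH (-0.46), inward rectifier (-0.20) and auxiliary (0.18) medians moved little. Probes are not replicates of a substate, and no test of this contrast was possible.

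By 0.5 or more on the log2 scale, 10 measured probes were lower in substate 2 (16.4%, where 6.1% of protein-coding probes were) and 5 were higher (8.2%, against 7.37%). Between the quartiles of signal, 6 of 31 were lower by that much (19.4%, against 9.33%) and 2 were higher (6.45%, against 8.9%). The 10 lower probes belonged to KCNJ2, KCNK6, KCNJ13, KCNK12, KCNS1, KCNK1, KCNH2, KCNH6, KCNT2 and KCNK7. The 5 higher ones belonged to KCNC1, KCNJ8, KCNA3, KCNIP3 and KCNN3.

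**Figure D4:**
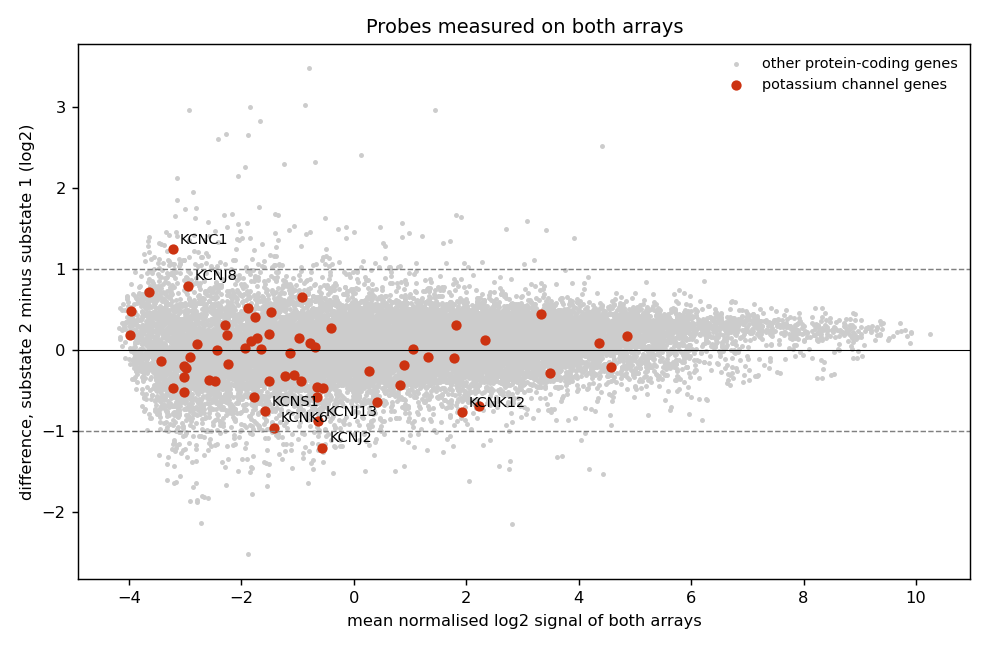
Difference, substate 2 minus substate 1 on the log2 scale (vertical axis), against the mean normalised log2 signal of both arrays (horizontal axis) for probes measured on both arrays. Red points are potassium channel probes, grey points other protein-coding probes, and dashed lines mark 2-fold. The red points lie mostly at low signal, KCNC1 above the upper line and KCNJ2 below the lower one.

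Of the 8 genes with more than 1 measured probe, 4 had probes of the same sign, namely KCNH2, KCNJ13, KCNK17 and KCNMB3. The probes of the other 4, among them KCNG3, KCNMA1 and KCNN3, had opposite signs. The gap between probes was widest for KCNN3 (0.90), followed by KCNMA1 (0.80) and KCNJ13 (0.74). A gene with 1 probe, such as KCNJ2, KCNK6 or KCNK12, has no check of this kind.

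**Figure D5:**
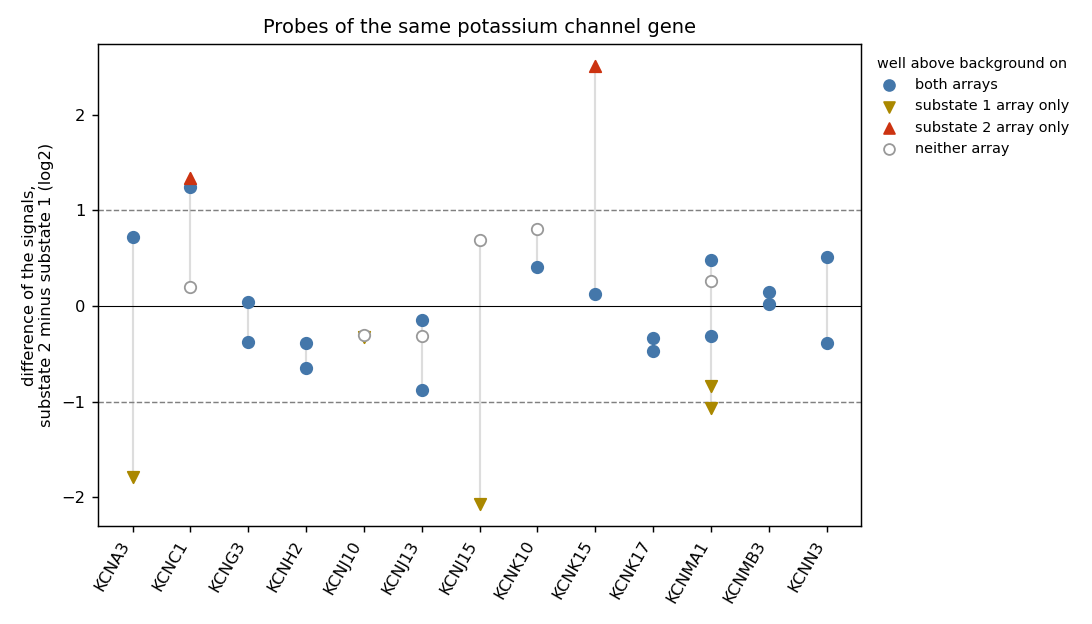
Difference of the signals, substate 2 minus substate 1 on the log2 scale (vertical axis), of the probes of potassium channel genes that have several probes with at least 1 of them detected. Symbols tell on which array a probe was detected, and the points of probes detected on 1 array or neither are differences of signals partly at background, not bounds. Probes of KCNA3, KCNJ15, KCNK15 and KCNMA1 spread widest.

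By the Z-score of the study, the difference of a probe relative to all probes of the arrays, with limits at 2.53-fold higher and 2.29-fold lower, 6 potassium channel probes were above (5%, against 3.03% of all and 1.96% of protein-coding probes) and 5 below (4.17%, against 3.3% and 2.06%). Of these 11 probes, KCNJ2 was measured on both arrays, 6 were detected on 1 array (KCNA3, KCNA5, KCNC1, KCNE4, KCNJ15 and KCNK15), and 4 on neither (KCNA7, KCNAB2, KCNIP2 and KCNMB2). The largest Z-score, 4.26, was that of KCNE4, whose probe had -6.35 in substate 1, below background, and -3.59 in substate 2. The KCNC1 probe lay on the limit, with a Z-score of 2.00. Of the 45 undetected probes, 21 had a difference of 0.2 to 0.4, and the median difference of all undetected probes on the arrays was 0.27. All of these calls but KCNJ2 concerned probes near background on at least 1 array.

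Genes that work with the potassium channels but carry other symbols were also read. Of 17 partner subunits, 13 had a measured probe, 3 higher and 10 lower in substate 2, with a median of -0.19. Of all measured protein-coding genes 38.2% were lower. LRRC55, a gamma subunit of BK channels, was 1.99-fold higher, with -2.98 in substate 1 and -1.99 in substate 2. TMEM38A, a potassium-permeable channel of the sarcoplasmic reticulum, and ADAM22, a neuronal surface protein found with Kv1 channels, differed by -0.60 and -0.54. None of these partners was past 2-fold.

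Of 27 genes for potassium pumps and cotransporters, 22 were measured, 7 higher and 15 lower, with a median of -0.10. ATP12A, a proton-potassium pump, had -2.23 and -3.07, and the pump regulators FXYD6 and FXYD1 differed by 0.54 and 0.53. Of 36 other voltage-gated cation channel genes, 25 were measured, 7 higher and 18 lower, with a median of -0.18. The sodium channel genes SCN9A and SCN4B differed by -0.69 and -0.64. CACNA1D, a calcium channel gene, was detected in substate 2 alone, with -5.07 and -2.90, and was at least 2.90-fold higher. The medians of these lists were below 0, like that of the pore-forming and modifier probes. Over measured protein-coding genes the median was 0.10, and 38.2% were lower. The lists were not matched to these genes by signal.

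Markers of cell types in which these channels are best known were read beside them. Of 8 neuronal markers, 5 were measured, 4 higher and 1 lower. STMN2 was 2.74-fold higher, with -0.72 and 0.73, and one SYT1 probe was 2.33-fold lower. The summed signal of the detected probes of this list, in multiples of the 75th percentile of the array, was 26.8 in substate 1 and 29.6 in substate 2. Most of it came from the brighter RBFOX3 probe, with normalised signals of 4.38 and 4.50 in that order. The sum thus says little of the other neuronal markers. GAD1, GAD2 and SLC17A6 were not detected. Of 4 neural progenitor markers, POU3F2, SOX1 and HES5 were detected in substate 2 alone, and PAX6 was on neither array. POU3F2, with signals of -4.40 and -0.67, had a bound of at least 13.3-fold in favour of substate 2. In the same direction the bound was 1.71-fold for SOX1 and 1.90-fold for HES5. The summed signal was 0.08, from undetected probes, in substate 1 and 0.80 in substate 2, most of it that of POU3F2. Of 4 cardiac markers with a named probe, 3 were measured. TNNT2 was 1.91-fold lower, with -0.78 and -1.71, MYH7 differed by -0.17, and NKX2-5 was higher, by 0.31. Their summed signal was 101.8 and 125.9, nearly all of it that of NKX2-5.

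Of 5 fibroblast markers, COL1A1 and COL1A2 were measured and lower, by differences of -0.49 and -0.50, DCN, LUM and COL3A1 were not detected, and the summed signal was 13.4 and 9.47. Of 3 endoderm markers FOXA2 was measured, with a difference of 0.77, and the summed signal was 0.20 and 0.27. Of 3 mesoderm markers MESP1 was detected, in substate 2 only, with a summed signal of 0.05, from an undetected probe, and 0.12. The part of any such cells in the potassium channel differences was not tested.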

How the data were processed

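Total RNA, labelled with Cy3 per the labels, was hybridised to SurePrint G3 Human GE 8x60K arrays, 1 per substate. The authors deposited the scanner output, whose intensity values per the file headers come from Feature Extraction 11.5.1.1 (background subtracted, spatial trend removed), and a matrix of log2 values that the authors made in GeneSpring by setting signals under 1 to 1 and shifting each array by its 75th percentile. For 100% of probes those deposited log2 values differed from the values computed here by 1 constant per array, within 0.01. Both arrays came from the same slide and scan. Per the file headers the design was annotated on hg19, so no probe coordinates are given.

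Here outlier spots were dropped, the processed intensity (floor of 1) was put on the log2 scale and averaged over the spots of each probe, and the 75th percentile of non-control probes was subtracted (Python 3.11.15, pandas 2.3.3, numpy 2.4.6). A probe printed several times counted as detected where at least a share of 0.5 of its spots was well above background. For a probe detected on 1 array, the bound, written as at least N-fold, took as dim value the lowest detected signal of the other array or the probe's own value there, whichever was higher. The Z-score followed the methods of the study, with a limit of 2. Quantile, loess (span 0.3) and normexp (offset 50, on median signals) alternatives used limma 3.58.1 in R 4.3.3. Probes were named by RefSeq accession in a table for GRCh38.p14. The number of arrays limits the precision, and no p-value is given. The computation was tested on simulated data, with changes past 2-fold put into brighter probes detected on both arrays. That test does not bear on dim members or small differences.

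The members, channel classes and gene lists were chosen with earlier results of these data known. Named genes were the 3 per class with the largest measured difference, those past 2-fold, KCNC1, those with probes more than 0.5 apart, and the 3 with the largest difference of each list of other pathway genes. Further genes, among them the undetected genes listed above and those with a probe detected on 1 array only, were named after their values were seen. Some genes that are counted are not reported by name here or drawn in the plots that name genes.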

Additional observations from a re-analysis of the deposited data

How the results depend on the processing

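The alternatives were median centring, quantile normalisation, loess centring, normexp correction, the deposited matrix, outlier spots kept, detection by spots positive and significant against background, and other Z-score spreads. Of the counts and class medians recomputed, 97 stayed within 1.5 times the count or 0.22 of the median (the SD between probes of a gene), and 12 moved further. Many of the 97 could hardly move. Detection does not depend on the scaling, the deposited matrix differs by 1 constant per array, and no potassium channel spot was an outlier. The limit of 0.22 exceeds the size of most class medians, so a median can change sign and still count as staying. The 97 are thus no measure of robustness. With positive and significant spots, 90 of the 120 potassium channel probes were measured on both arrays, in place of 61. Normexp correction left 0 probes 2-fold or more higher and 0 lower, and detection by positive and significant spots gave 9 higher and 7 lower. Probes above the Z-score limit numbered 2 after normexp correction, 14 with the spread of probes measured on both arrays, and 12 with the median absolute deviation. Those below it numbered 10, 12 and 19. Detection by positive and significant spots turned the sign of the KCNQ median (0.17), of the median of all potassium channel probes (0.005) and of the mean differences of KCNA3 (-0.53) and KCNMA1 (-0.43), for which more probes were then averaged, and it put the tandem-pore-domain median at -0.046. After normexp correction KCNK6 differed by -0.65, KCNS1 by -0.43, KCNH6 by -0.29, KCNJ8 by 0.26, KCNA3 by 0.25 and, with its sign turned, KCNMA1 by -0.05. The calcium- and sodium-activated median turned on median centring and normexp correction. Probes named by a gene name column could not be added, as the columns used here hold none. No paired analysis was possible because there was 1 array per substate. Signal over background limits the dim members most.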

Other observations

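The noncoding genes named after potassium channels, left out of the counts above, had 21 probes for 17 genes. Of these probes 6 were measured on both arrays, 2 were detected in substate 1 only and 13 on neither array. KCNQ1OT1, the imprinted antisense RNA of the KCNQ1 locus, had 0.61 in substate 1 and 0.48 in substate 2 on one probe and 1.60 and 1.29 on the other. KCNQ5-IT1, from within KCNQ5, had -0.43 and -1.29, 1.81-fold lower in substate 2, while the KCNQ5 messenger RNA probe was at least 1.77-fold higher. KCNIP4-IT1 was detected in substate 1 alone, with -2.99 and -4.04, at least 2.08-fold lower, beside -0.74 and -1.13 for KCNIP4. KCNIP2-AS1 was 1.55-fold higher on its measured probe, with -4.05 and -3.42. KCND3-IT1 and KCNMB2-AS1 were measured on both arrays, each with a difference of 0.04, although KCND3 and KCNMB2 themselves were not detected. These genes were named after their values were seen.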
